A study of Mus musculus with 6 samples.

Results

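Epithelial keratin and desmosome genes were compared between the cochlear and the vestibular sensory epithelium of the newborn mouse. The set was chosen by name and holds 10 of the 39179 genes in the count files, namely the keratins Krt8, Krt18, Krt19, Krt5 and Krt7 and the desmosome genes Dsp, Dsg2, Dsc2, Pkp2 and Jup. Both groups were untreated wild-type C57Bl/6J mice at P0 (day of birth), with males and females pooled, and they differed only in the tissue dissected. Cochlear and vestibular epithelia were both stated to come from 20 ears of 10 mice, so the tissues may share animals. From each sample 450 ng of total RNA went into a stranded mRNA library, with 3 libraries for the cochlea and 3 for the vestibule. The labels do not settle whether the libraries of a tissue came from separate pools of animals, so the p-values measure only the spread between these libraries, which may be technical. All 10 genes passed the filter of at least 1 CPM (counts scaled to library size) in at least 3 libraries, as did 14723 genes in all, but Krt5 passed through the vestibular libraries alone.

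Keratins are the intermediate filament proteins of epithelial cells, and each filament is assembled from pairs of a type I and a type II chain. Krt8 (type II) and Krt18 (type I) form the pair of simple epithelia, often joined by Krt7 (type II) and Krt19 (type I), whereas Krt5 (type II) is best known with Krt14 (type I) from the basal layer of stratified epithelia. Desmosomes are the spot junctions to which these filaments are anchored. Their cadherins, the desmogleins and desmocollins (here Dsg2 and Dsc2), bind across the gap between cells, the armadillo proteins plakoglobin (Jup) and plakophilin-2 (Pkp2) sit on the cadherin tails, and desmoplakin (Dsp) ties this plaque to the keratin filament. In the sensory epithelia of the inner ear, hair cells are separated from one another by supporting cells, and non-sensory epithelium borders them.

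The libraries held 24464483 to 33664793 counts on genes, so that 1 CPM stood for 24.5 to 33.7 counts. The tissue labels were compared with marker genes. The summed CPM of 9 hair cell markers was 583 to 819 in the cochlea and 1052 to 1361 in the vestibule, and that of 8 supporting cell markers was 8132 to 11056 and 1259 to 1433, respectively. In the cochlea, most of the latter sum was Tecta, which encodes a protein of the tectorial membrane. Markers of both cell types were thus present in every library. One cochlear library stood apart in muscle RNA: skeletal muscle markers summed to 313 CPM in cochlea replicate 3 and to 19.7 to 39.9 CPM in the other libraries.

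The members lie mainly in gene clusters, and the sequence just upstream of a few of them is shown for comparison with their values. Positions are given on GRCm38. The chromosome 15 cluster (101347444 to 102032027) holds 25 type II keratin genes and, at its end, the type I gene Krt18. Krt8 (101996698 to 102004482, minus strand, 9 exons) and Krt18 (102028180 to 102032027, plus strand, 7 exons) lie on opposite strands and are separated by 23.7 kb. Krt7 (101411043 to 101430313, plus strand, 9 exons) and Krt5 (101707070 to 101712898, minus strand, 9 exons) lie in the same cluster. Krt19 (100140810 to 100148665, minus strand, 6 exons) belongs to the type I cluster on chromosome 11. The 3′ end of Jup (100368958 to 100397763, minus strand, 14 exons) lies 99.1 kb past the last keratin gene of that cluster. Dsp lies on chromosome 13 (38151294 to 38198577, plus strand, 24 exons) and Pkp2 on chromosome 16 (16213318 to 16272712, plus strand, 13 exons).

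RefSeq promoter sequence (GRCm38.p6) was matched for 6 of the 10 genes, and 4 are printed 5′ to 3′ on the strand of the gene, ending upstream of the annotated gene start. They show the Krt8 and Krt18 neighbours, which were both higher in the vestibule, and Dsp and Jup, of which only Dsp was. Capitals mark a match on either strand to GGGCGG, the core of a GC box, or to CCAAT, the CCAAT box. The TATA box (searched as TATAAA) and the AP-1 site (searched as TGAGTCA) gave no match in these stretches. The stretches are chr15:102004483-102004592 (Krt8, minus), chr15:102027966-102028179 (Krt18, plus), chr13:38151044-38151293 (Dsp, plus) and chr11:100397791-100398040 (Jup, minus).
Krt8: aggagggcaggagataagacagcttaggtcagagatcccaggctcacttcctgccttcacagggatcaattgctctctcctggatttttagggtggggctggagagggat
Krt18: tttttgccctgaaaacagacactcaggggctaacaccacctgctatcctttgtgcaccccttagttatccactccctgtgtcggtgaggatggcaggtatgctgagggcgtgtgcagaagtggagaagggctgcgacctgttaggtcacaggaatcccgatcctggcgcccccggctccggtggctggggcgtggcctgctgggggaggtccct
Dsp: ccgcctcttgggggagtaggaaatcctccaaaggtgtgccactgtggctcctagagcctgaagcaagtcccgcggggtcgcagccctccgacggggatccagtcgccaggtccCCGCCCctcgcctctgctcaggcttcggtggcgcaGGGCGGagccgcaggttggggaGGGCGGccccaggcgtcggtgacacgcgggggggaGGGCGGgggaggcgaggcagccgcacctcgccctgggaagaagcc
Jup: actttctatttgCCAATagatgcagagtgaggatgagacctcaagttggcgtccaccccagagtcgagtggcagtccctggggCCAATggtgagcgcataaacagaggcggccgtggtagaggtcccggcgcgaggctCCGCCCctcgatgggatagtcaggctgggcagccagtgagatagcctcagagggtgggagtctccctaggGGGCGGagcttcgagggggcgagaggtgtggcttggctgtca

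The 250 bases before the RefSeq start were scored for all 6 genes. For Krt7 all 250 of them lie inside the annotated gene, as do 140 for Krt8 and 36 for Krt18. Krt7 and Dsp each held 4 matches to GGGCGG, and Jup held 2 together with 2 of CCAAT. No match to any of the 4 motifs was found in Krt8, Krt18 or Krt5. Among 32851 promoters of this length, GGGCGG was present in 32.7%, CCAAT in 33.8%, TATAAA in 12.4% and TGAGTCA in 4.46%. GC content was 72.4% for Dsp, 66.0% for Krt7, 62.0% for Jup, 60.4% for Krt18, 58.0% for Krt8 and 56.0% for Krt5, against a mean of 53.2% over all promoters.

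Of the 9 genes that reached 1 CPM in at least 1 library of each tissue, 6 were higher in the vestibule (Krt8, Krt18, Krt7, Dsp, Dsg2 and Dsc2), 0 were higher in the cochlea and 3 were not called (Krt19, Pkp2 and Jup), by edgeR's quasi-likelihood test with a Benjamini-Hochberg adjusted p under 0.05. Of the 14194 genes that met the same condition, 13.7% were called higher in the vestibule and 11.2% higher in the cochlea. Krt5 was called as well, which makes 7 of 10, but it passed the filter only through the tissue in which it was high and so had to differ. Of all 14723 genes tested, 15.8% were called higher in the vestibule and 11.6% higher in the cochlea. In plain CPM, all 3 vestibular libraries lay above all 3 cochlear libraries in these 7 genes, which for Krt5 the filter had fixed. This arrangement was seen in 27.5% of all genes, a share that includes genes that passed through the vestibule alone. The opposite arrangement was seen in 0 of the members and in 14.3% of all genes. The median log2 fold change (vestibule minus cochlea) was 1.15 over the 9 genes without Krt5 (1.43 with it) and 0.0 over all genes, whose 5th and 95th percentiles were −1.16 and 1.73. Fold changes are on the trimmed mean of M values (TMM) scale, which is somewhat smaller than the plain ratio of CPM values: with library size alone the median of all genes moved to 0.13, the vestibular share of all calls rose from 57.6% to 68.8%, and the same number of members, 7, was called. In bulk tissue, fewer cells of a type and less RNA per cell cannot be told apart.

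**Figure D1:**
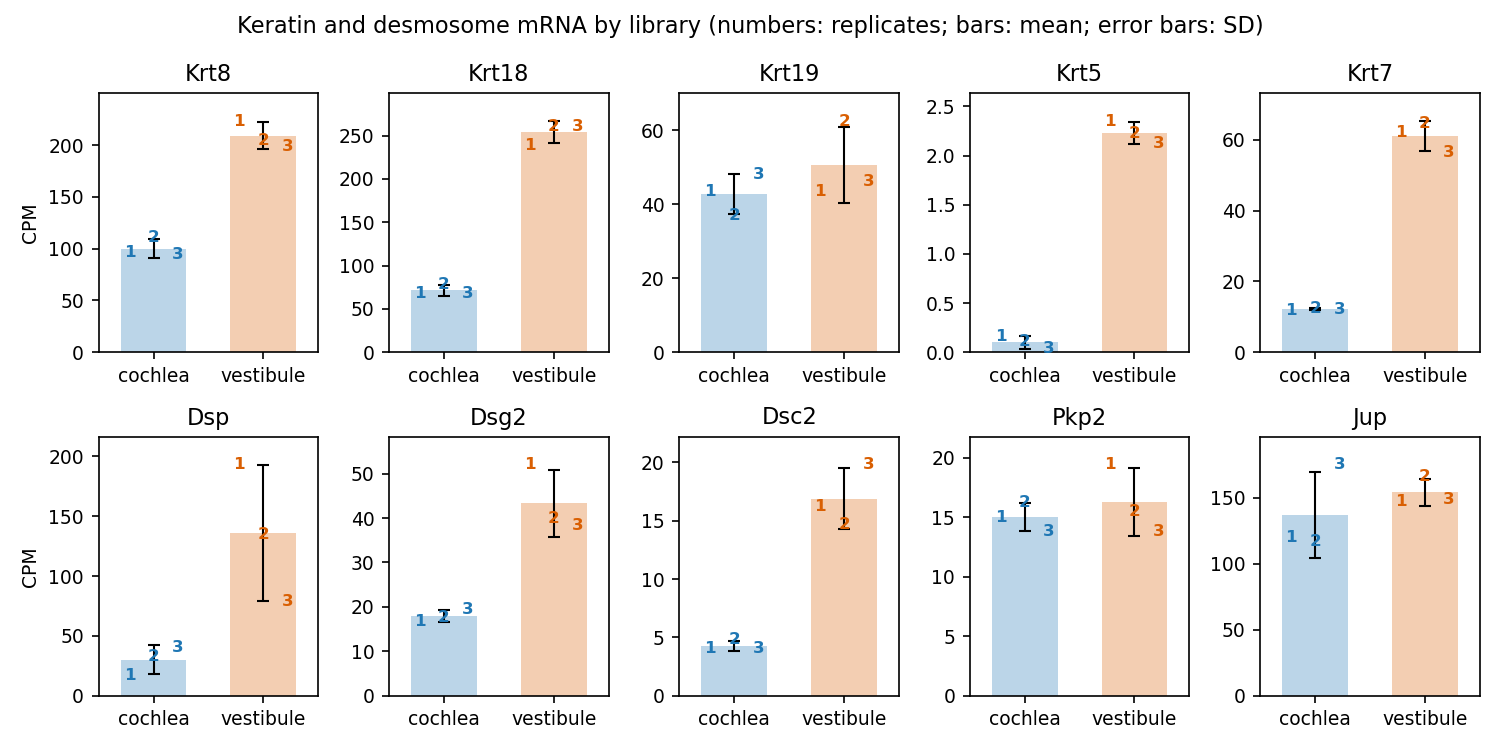
CPM of each of the 10 genes in the 6 libraries. Bars are the mean of 3 libraries from 0, error bars the SD, and the digits mark the single replicates. The vestibular digits lie above all cochlear ones for 7 genes and overlap them for Krt19, Pkp2 and Jup.

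Of the 4 keratins other than Krt5, the 3 genes Krt8, Krt18 and Krt7 were higher in the vestibule. Krt8 of the simple-epithelial pair stood at 96.3, 111 and 94.0 CPM in the cochlear libraries and at 223, 204 and 199 CPM in the vestibular libraries. The vestibular libraries were all higher, and the spread within a tissue was small. Its log2 fold change was 0.93 ± 0.13 (SE, n = 3 libraries per tissue), or 1.91-fold (edgeR quasi-likelihood adjusted p = 0.00092). Krt18, its partner, was at 68.0, 78.1 and 67.7 CPM in the cochlea and at 239, 261 and 261 CPM in the vestibule. The groups did not overlap, and its log2 fold change of 1.71 ± 0.14 was 3.27-fold (edgeR adjusted p = 5.1e-05).

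Krt7, a further type II keratin of simple and ductal epithelia, was at 11.9, 12.4 and 12.0 CPM in the cochlea and at 62.1, 64.6 and 56.5 CPM in the vestibule. No library of one tissue approached those of the other, with a log2 fold change of 2.21 ± 0.12, or 4.64-fold (edgeR adjusted p = 7.6e-06). Krt5 was near the limit of detection in the cochlea, with 4, 3 and 1 counts, and had 79, 57 and 54 counts in the vestibule. Summed over libraries this was 190 against 8 counts, a ratio of 23.1 after scaling to the summed library sizes (95% exact interval 11.5 to 54.3, counting error only). The fitted log2 fold change of 4.33 ± 0.40 depends on the prior count and, since the filter was passed through the vestibule alone, its call is not read as a test. Krt5 stayed low in the vestibule as well, at 2.35, 2.22 and 2.12 CPM.

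Krt19, the small type I keratin of simple epithelia, was the only one of the 5 keratins not called. It was at 43.3, 37.0 and 47.9 CPM in the cochlea and at 43.4, 62.4 and 46.0 CPM in the vestibule. The libraries overlapped, and vestibule replicate 2 was the highest. The log2 fold change was 0.13 ± 0.17 (edgeR adjusted p = 0.61).

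Among the desmosome genes, both cadherins and desmoplakin were higher in the vestibule. Dsp was at 17.2, 32.9 and 40.6 CPM in the cochlea and at 193, 135 and 79.1 CPM in the vestibule. The groups did not overlap, but the libraries of each tissue differed widely. The log2 fold change was 2.02 ± 0.36, or 4.07-fold (edgeR adjusted p = 0.0034). Dsg2 was at 16.6, 17.7 and 19.3 CPM in the cochlea and at 52.0, 39.8 and 38.3 CPM in the vestibule. Every vestibular library was higher, with a log2 fold change of 1.15 ± 0.15, or 2.22-fold (edgeR adjusted p = 0.00054). An annotated antisense gene, Gm16090, overlaps Dsg2 and had 20 counts in all libraries together. Dsc2, the desmocollin, was at 4.05, 4.79 and 4.04 CPM in the cochlea and at 16.2, 14.7 and 19.8 CPM in the vestibule. The tissues were again separate, with a log2 fold change of 1.86 ± 0.21, or 3.63-fold (edgeR adjusted p = 0.00027).

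The armadillo proteins of the plaque gave other values. Pkp2 was at 15.0, 16.2 and 13.8 CPM in the cochlea and at 19.4, 15.5 and 13.8 CPM in the vestibule. The ranges overlapped and the log2 fold change was −0.01 ± 0.16 (edgeR adjusted p = 0.97). Jup, which is shared by desmosomes and adherens junctions, was at 120, 117 and 175 CPM in the cochlea and at 147, 166 and 149 CPM in the vestibule. Its highest library was cochlear, and the log2 fold change was 0.05 ± 0.17 (edgeR adjusted p = 0.85).

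Levels of different genes were compared per length, as RPKM, reads scaled by gene length and library size. In the cochlea the order was Krt8 (55.7 RPKM, mean of 3 libraries), Krt18 (51.0), Krt19 (23.1), Jup (21.4), Dsp (3.15), Pkp2 (2.8), Dsg2 (2.17), Krt7 (1.72), Dsc2 (0.816) and Krt5 (0.0501). Libraries overlapped between the neighbours Krt8 and Krt18, Krt19 and Jup, and Dsp and Pkp2. In the vestibule the order was Krt18 (181 RPKM), Krt8 (116), Krt19 (27.3), Jup (24.0), Dsp (14.1), Krt7 (8.67), Dsg2 (5.25), Dsc2 (3.21), Pkp2 (3.04) and Krt5 (1.02), with overlap between Krt19 and Jup, Dsp and Krt7, and Dsc2 and Pkp2. Krt8 and Krt18, which overlapped in the cochlea, were separate in the vestibule with Krt18 ahead, and Pkp2 stood in the sixth place in the cochlea and in the ninth in the vestibule. The place of Krt7, Pkp2 and Jup depends on the gene length: the authors' length for Jup is 6424 bases, whereas the longest coding transcript in GENCODE is 3205 bases, and with the latter its mean was 42.8 RPKM in the cochlea and 48.1 RPKM in the vestibule.

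Because keratin chains and desmosomal cadherins work as partners, 3 ratios of RPKM were formed within each library. The Krt8 to Krt18 ratio was 1.1, 1.1 and 1.08 in the cochlear libraries and 0.724, 0.605 and 0.593 in the vestibular ones. The tissues did not overlap, and the mean log2 ratio was 0.13 ± 0.02 (SD, n = 3) against −0.65 ± 0.16, a difference of −0.77 (two-sided exact permutation test, p = 0.1, the smallest that 3 against 3 libraries allow). The ratio of type II (Krt5, Krt7 and Krt8) to type I (Krt18 and Krt19) members was 0.766, 0.834 and 0.725 in the cochlear libraries and 0.688, 0.559 and 0.566 in the vestibular ones. Its log2 means were −0.37 ± 0.10 and −0.73 ± 0.17, a difference of −0.36 (exact permutation p = 0.1), which was −0.14 when CPM were summed without length. The Dsg2 to Dsc2 ratio was 2.62, 2.35 and 3.05 in the cochlear libraries and 2.04, 1.72 and 1.23 in the vestibular ones. Dsg2 thus exceeded Dsc2 in every library, by less in each vestibular one, with a log2 difference of −0.71 (exact permutation p = 0.1). None of the 3 ratios could reach 0.05 in this design.

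**Figure D2:**
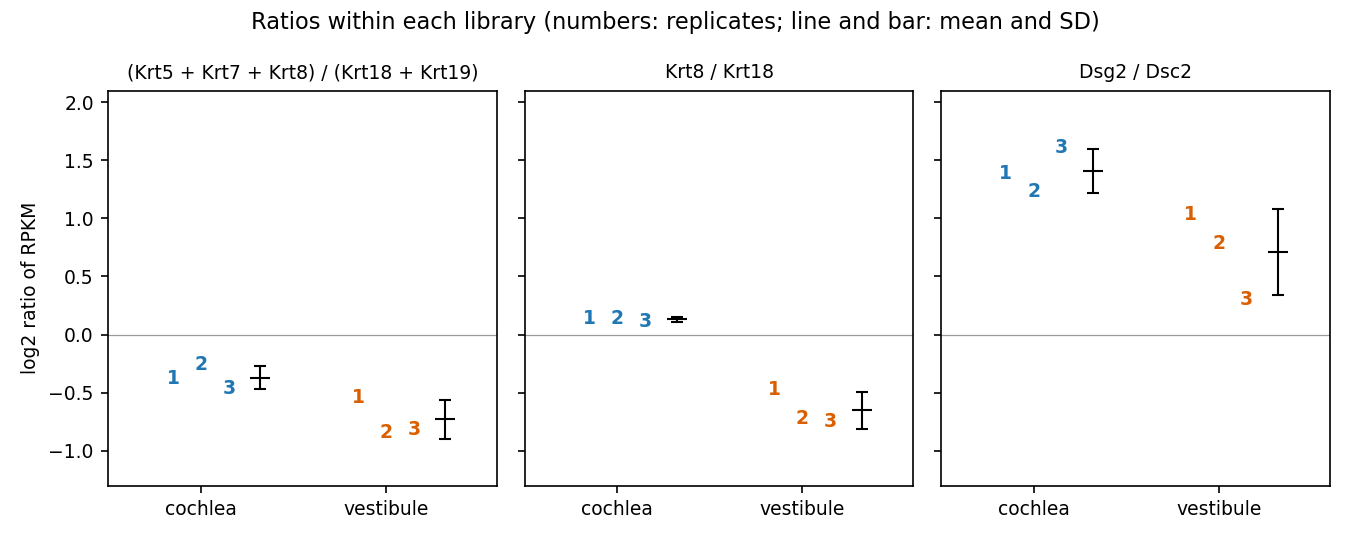
Log2 ratios of RPKM within each library for the keratin types (type II over type I), Krt8 over Krt18, and Dsg2 over Dsc2. The digits mark the replicates of each tissue, and the vestibular ones lie below the cochlear ones in all 3 ratios.

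The spread between libraries of one tissue was not alike for the members. The SD of log2 CPM was 0.63 for Dsp in the cochlea and 0.64 in the vestibule, above that of 95.9% and 96.7% of all genes tested, whose medians were 0.21 and 0.17. For Krt8 it was 0.13 and 0.09, and for Krt18 0.12 and 0.07. Dsp deviated from its tissue mean by −0.71, 0.21 and 0.50 on the log2 scale in cochlea replicates 1, 2 and 3, and by 0.60, 0.08 and −0.68 in vestibule replicates 1, 2 and 3. The other genes of the cytoskeletal linker (plakin) family examined shared the direction in cochlea replicates 1 and 3 and in vestibule replicates 1 and 3, namely Ppl and Evpl (desmosome) and Plec and Dst (hemidesmosome). Dst, the longest at 37.4 kb, deviated by −1.03 and 0.99 in cochlea replicates 1 and 3 and by 1.45 and −1.31 in vestibule replicates 1 and 3. The direction was not particular to plakins. Nes, an intermediate filament gene, was at 59.4, 69.1 and 118 CPM in the cochlea and 135, 107 and 55.1 CPM in the vestibule. Vim went the other way, at 765, 912 and 678 CPM and at 570, 762 and 771 CPM, respectively. How many genes went either way was not counted. The median deviation of the 1632 genes of 8 kb or more was −0.10, −0.08 and 0.22 in the cochlear libraries and 0.24, 0.02 and −0.25 in the vestibular ones, and that of the 2837 genes under 2 kb was 0.08, 0.01 and −0.08 and −0.10, 0.02 and 0.08. In the class of 2 to 8 kb (10253 genes), to which Ppl (6.26 kb) and Evpl (6.36 kb) belong, the median deviation was 0.03, −0.05 and 0.04 in the cochlear libraries and 0.07, 0.01 and −0.08 in the vestibular ones. Dsg2, at 8.25 kb, deviated by 0.27 at most. With a per-library offset that removes the trend on length, chosen after seeing the data, the log2 fold change of Dsp was 1.96 (edgeR adjusted p = 0.00067). The part of gene length in the spread of Dsp was not tested beyond this fit.

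**Figure D3:**
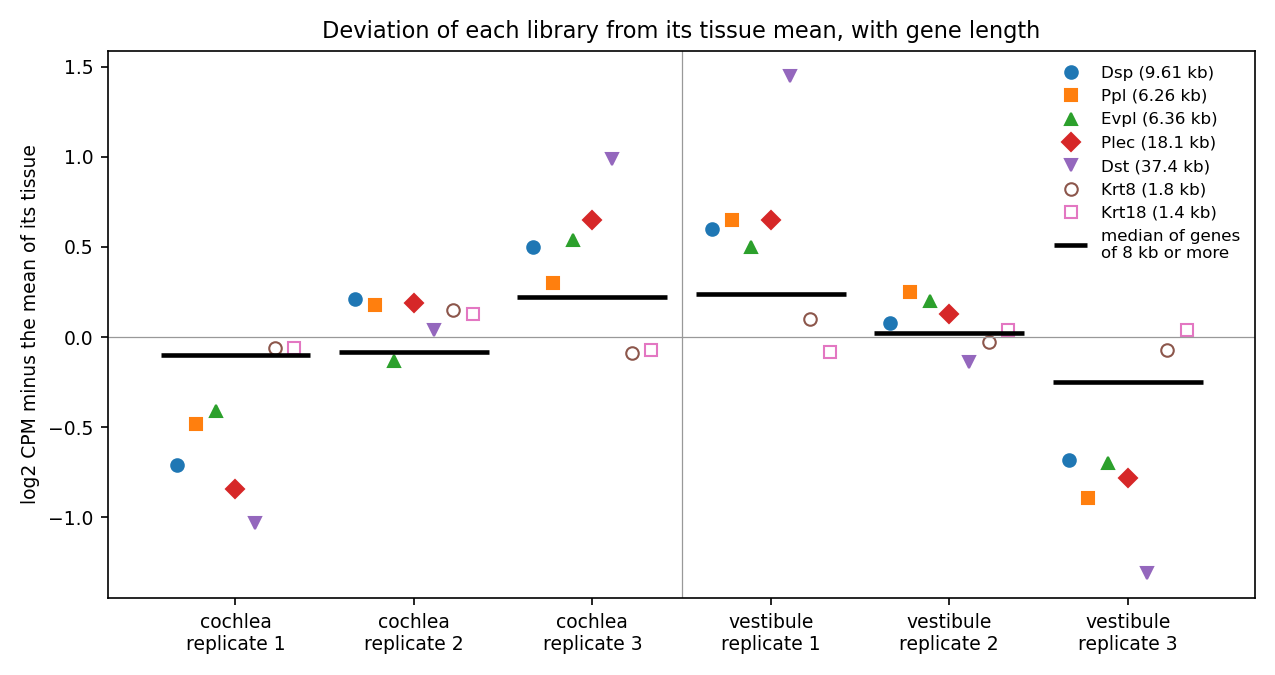
Deviation of log2 CPM from the tissue mean in each library for 5 plakin genes (filled), Krt8 and Krt18 (open), with gene length in the key. Black bars are the median of the 1632 genes of 8 kb or more; the plakin genes lie low in cochlea replicate 1 and vestibule replicate 3 and high in cochlea replicate 3 and vestibule replicate 1, while Krt8 and Krt18 stay near 0.

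The remaining keratin genes were mostly under the filter. Of 47 matched, 39 did not pass the filter, 10 of them without a count in any library and none with more than 66 counts in one. Of the 8 tested, 3 passed the filter through 1 tissue alone, namely Krt90 and Krt20 through the vestibule and Krt87 through the cochlea, so that their direction was set by the filter. Of the other 5, 2 were higher in the vestibule (Krt23 and Krt80), 0 were higher in the cochlea and 3 were not called, beside 13.7% and 11.2% of all genes under the same condition, and the median log2 fold change was 0.04 (all genes 0.0). Krt23, a type I keratin, was at 1.64, 0.868 and 1.23 CPM in the cochlea and at 11.5, 10.4 and 10.5 CPM in the vestibule, without overlap. Its log2 fold change was 3.00 ± 0.25 (edgeR adjusted p = 5e-05). Krt80, a type II keratin, was at 1.14, 0.625 and 1.16 CPM and at 6.27, 5.37 and 3.81 CPM, respectively, a log2 fold change of 2.28 ± 0.29 (edgeR adjusted p = 0.00059). Summed over libraries, the vestibule and the cochlea had 207 against 12 counts for Krt90 (ratio scaled to summed library sizes 16.8, 95% exact interval 9.4 to 33.0) and 163 against 4 counts for Krt20 (ratio 39.6, interval 15.2 to 147). Krt87, whose 3′ end lies 725 bases past the end of Krt7 on the opposite strand, was at 1.72, 1.42 and 1.23 CPM in the cochlea and 0.683, 0.623 and 0.55 CPM in the vestibule (log2 fold change −1.34 ± 0.27). With these 3 genes the counts were 4 in the vestibule and 1 in the cochlea and the median was 1.16. Without any 1 of the vestibular libraries the vestibular count was 2, since Krt90 and Krt20 then failed the filter, and without any 1 of the cochlear libraries the cochlear count was 0.

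Partners of Krt5 in stratified epithelia were scarce. Krt14 had 3 counts at most in a library and was not tested. Krt15, likewise a basal-cell keratin, had 23, 66 and 48 cochlear and 14, 13 and 12 vestibular counts, and Krt17 had 5, 19 and 12 cochlear and 31, 16 and 17 vestibular counts. Both were under the filter. The suprabasal keratins Krt1 and Krt10 were tested and not called, with log2 fold changes of −0.75 ± 0.38 and 0.04 ± 0.26 (edgeR adjusted p = 0.18 and 0.93), as was Krt222 at −0.34 ± 0.29 (edgeR adjusted p = 0.42). Stratified epidermis markers summed to 9.31 to 13.5 CPM in the cochlea and 9.36 to 14.7 CPM in the vestibule, with 0 of 3 tested called and Dsg1a at 0 in every library. By this sum the tissues overlapped.

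**Figure D4:**
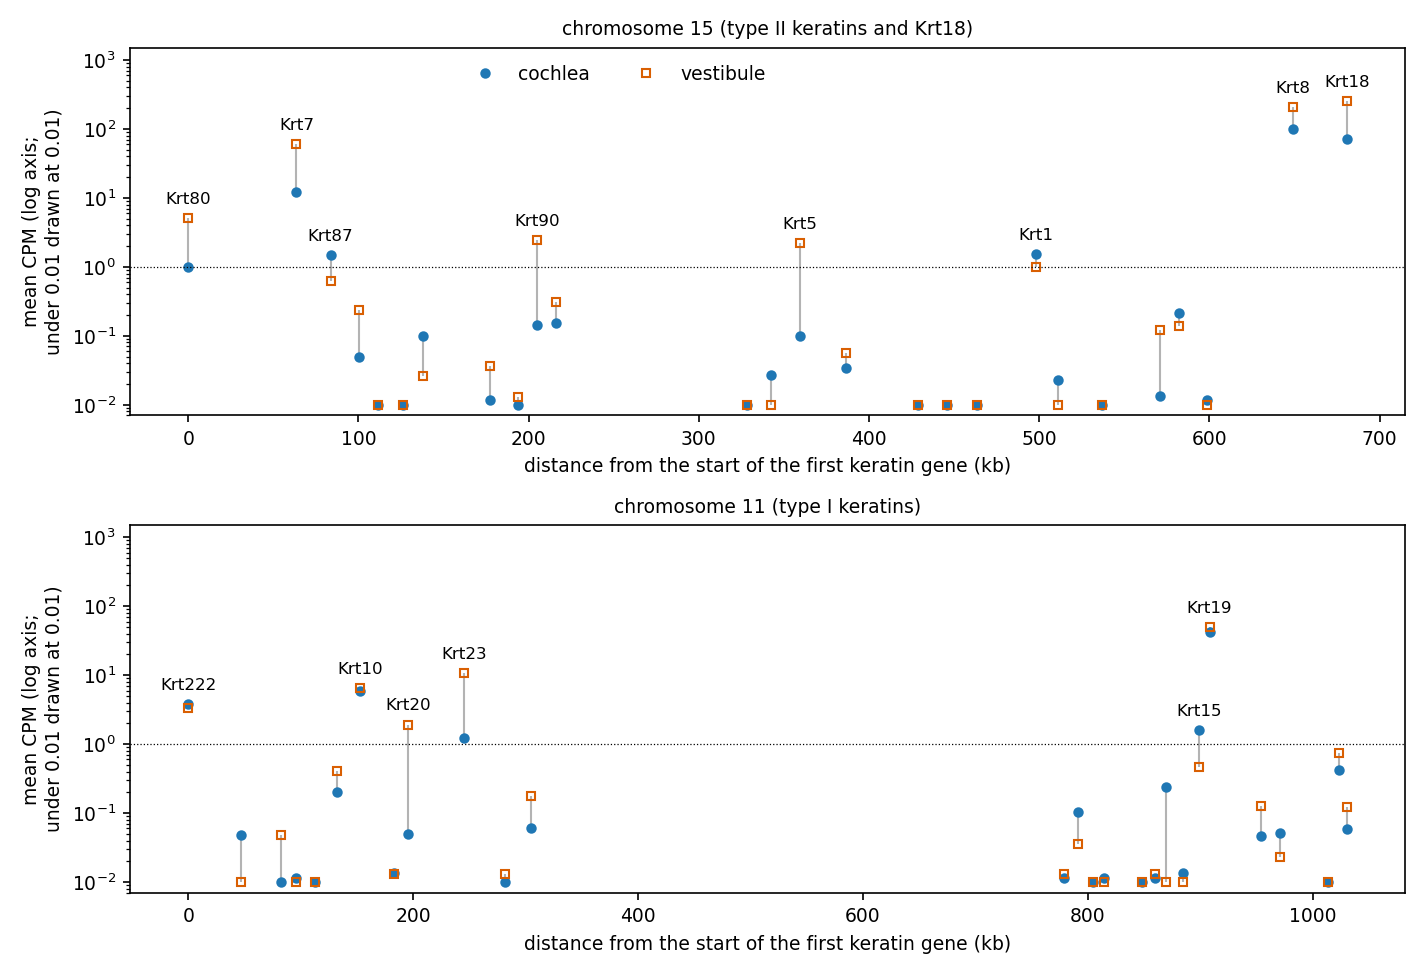
Mean CPM of keratin genes along the type II cluster (with Krt18) and the type I cluster, by tissue, on a log axis. Values under 0.01 CPM are drawn at 0.01 and the dotted line is 1 CPM; Krt8 and Krt18 stand highest in the first cluster and Krt19 in the second.

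Of the 6 other desmosome genes tested, 2 were higher in the vestibule, 1 was higher in the cochlea and 3 were not called (median log2 fold change 0.81, all genes 0.0). All 6 reached 1 CPM in a library of each tissue. The calls are 33.3% and 16.7% of the list, beside 13.7% and 11.2% of all genes that did so. Pkp1, a plakophilin mostly of stratified epithelia, was at 10.8, 6.6 and 14.7 CPM in the cochlea and at 54.7, 40.9 and 30.1 CPM in the vestibule. Its groups did not overlap, and its log2 fold change was 1.85 ± 0.28 (edgeR adjusted p = 0.0015). Perp, a membrane protein of desmosomes, was at 28.0, 24.9 and 19.3 CPM and at 54.7, 59.8 and 70.2 CPM, respectively, a log2 fold change of 1.24 ± 0.19 (edgeR adjusted p = 0.0014). Pkp4, an armadillo protein that is also found at adherens junctions, went the other way, at 317, 323 and 494 CPM in the cochlea and 193, 174 and 129 CPM in the vestibule. Its log2 fold change was −1.31 ± 0.20 (edgeR adjusted p = 0.0015). Thus among the plakophilins Pkp1 was higher in the vestibule, Pkp4 higher in the cochlea, and Pkp2 and Pkp3 were not called (log2 fold change of Pkp3 0.35 ± 0.14, edgeR adjusted p = 0.094). The plakins Ppl and Evpl were not called either, at 1.07 ± 0.37 and 0.55 ± 0.34 (edgeR adjusted p = 0.064 and 0.28). The 8 untested genes had at most 31 counts in a library. The desmosomal cadherins of stratified epithelia were among them: Dsg3 had 5, 4 and 2 cochlear and 1, 0 and 1 vestibular counts, and Dsc3 had 20, 19 and 8 cochlear and 4, 5 and 1 vestibular counts.

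**Figure D5:**
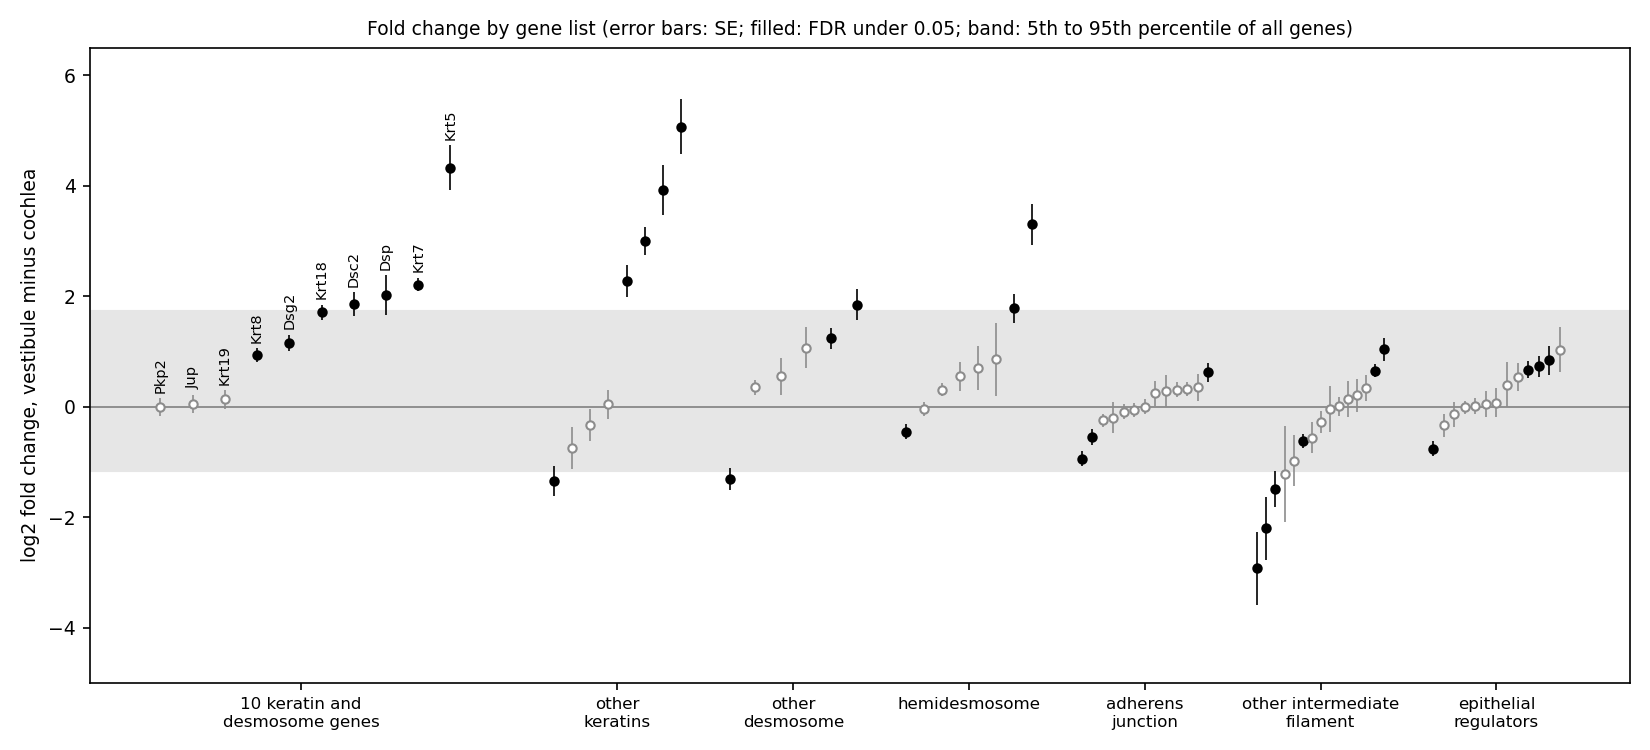
Log2 fold change (vestibule minus cochlea) of every tested gene in 7 gene lists, with SE bars. Filled points passed an adjusted p of 0.05 and the band spans the 5th to 95th percentile of all genes; of the 10 named genes, Krt5, Krt7, Dsp and Dsc2 lie above the band.

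Genes of the neighbouring junctions were counted in the same fit. Of 8 hemidesmosome genes tested, 2 were higher in the vestibule, 1 in the cochlea and 5 were not called. Their median log2 fold change was 0.63, and the calls made up 25% and 12.5%. Of all genes that likewise reached 1 CPM in a library of each tissue, 13.7% and 11.2% were called. Lama3 and Lamb3, chains of laminin-332 in the basement membrane, were the 2 genes higher in the vestibule. Lama3 was at 1.02, 1.01 and 2.5 CPM in the cochlea and at 21.4, 15.5 and 12.3 CPM in the vestibule (log2 fold change 3.30 ± 0.37, edgeR adjusted p = 0.00027), and Lamb3 had a log2 fold change of 1.78 ± 0.26 (edgeR adjusted p = 0.0012). The hemidesmosome integrin gene Itga6 was slightly lower in the vestibule, at −0.45 ± 0.14 (edgeR adjusted p = 0.046). No hemidesmosome gene was called higher in the cochlea in 10 of 14 alternatives, among them library size alone and 5 of the 6 fits that leave out 1 library (each cochlear library and vestibule replicates 1 and 2).

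Of 13 adherens junction genes tested, 1 was higher in the vestibule, 2 in the cochlea and 10 were not called, with a median log2 fold change of 0.0. The calls made up 7.69% and 15.4% of the list, against 13.7% and 11.2% of all genes that likewise reached 1 CPM in a library of each tissue. Cdh1, E-cadherin, was at 416, 503 and 503 CPM in the cochlea and at 282, 271 and 251 CPM in the vestibule. All cochlear libraries were higher, and its log2 fold change was −0.94 ± 0.14 (edgeR adjusted p = 0.0011), opposite in sign to that of Dsg2 and Dsc2 in the same libraries. The nectin gene Nectin3 was also higher in the cochlea (−0.55 ± 0.14, edgeR adjusted p = 0.022) and Cdh3, P-cadherin, in the vestibule (0.62 ± 0.17, edgeR adjusted p = 0.027). The call of Cdh3 was lost, leaving 0 in the vestibule, without cochlea replicate 1 or 2 or vestibule replicate 2 or 3, and the cochlear count was 1 without cochlea replicate 1 or 2 or vestibule replicate 1 or 2.

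Of 13 epithelial regulators and markers tested, 3 were higher in the vestibule, 1 was higher in the cochlea and 9 were not called. Their median log2 fold change was 0.07, and the calls made up 23.1% and 7.69%. Of all genes that likewise reached 1 CPM in a library of each tissue, 13.7% and 11.2% were called. Epcam, an epithelial adhesion molecule used as a general epithelial marker, was at 406, 457 and 390 CPM in the cochlea and at 731, 699 and 744 CPM in the vestibule. It did not overlap between the tissues (log2 fold change 0.67 ± 0.15, edgeR adjusted p = 0.0087), and Grhl2, a transcription factor of epithelial junction genes, was at 0.73 ± 0.19 (edgeR adjusted p = 0.020). Esrp2, an epithelial splicing factor, was at 0.84 ± 0.26 (edgeR adjusted p = 0.040). The vestibular count was 1 without cochlea replicate 1 or 2 or vestibule replicate 2. Trp63, the p63 factor of basal cells, was at 0.94, 1.42 and 1.57 CPM in the cochlea and 1.57, 2.92 and 4.28 CPM in the vestibule and was not called (1.03 ± 0.41, edgeR adjusted p = 0.097).

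Markers of several other cell types also moved with the tissue. Dark cell and stria markers summed to 664 to 839 CPM in the cochlea and 1259 to 1378 CPM in the vestibule, with 5 of 7 higher in the vestibule. Mesenchyme markers summed to 5234 to 5925 and 8035 to 9277 CPM, Schwann cell markers to 502 to 659 and 1089 to 1469 CPM, endothelial markers to 74.4 to 137 and 384 to 551 CPM, and macrophage markers to 80.6 to 96.5 and 319 to 344 CPM. Genes called higher in the vestibule were 4 of 9 for mesenchyme (2 were higher in the cochlea), 3 of 5 for Schwann cells, 5 of 6 for endothelium and 6 of 6 for macrophages. Cartilage markers summed to 10452 to 17812 CPM in the cochlea and 12977 to 16377 CPM in the vestibule, which overlapped, while 2 of 5 were higher in the vestibule and 1 was higher in the cochlea. Heart muscle markers, listed because Dsg2, Dsc2, Pkp2, Dsp and Jup are also genes of the cardiac junction, summed to 2.41 to 13.5 CPM in the cochlea and 6.52 to 13.6 CPM in the vestibule, with 1 of 4 tested higher in the vestibule. The part of these cell types in the differences of the members was not tested.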

How the data were processed

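RNA-seq libraries (100 bp paired end) from 3 cochlear and 3 vestibular samples were analysed. The authors aligned reads with TopHat2 2.1.0 to GRCm38 and counted them per Ensembl gene with HTSeq 0.5.4p5; SAMtools 0.1.18 and edgeR 3.4.2 are also named in the submitters' processing notes. The deposited counts per gene are raw. The deposited log2 RPKM matrix, made by the authors from the same counts and gene lengths without TMM scaling, served only for levels between genes and ratios. The 5 summary lines of each count file (18.5% to 20.6% of the total) were left out of library sizes.

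The 14723 genes (of 39179) that reached 1 CPM in at least 3 libraries were fitted with edgeR 4.0.16 (R 4.3.3), using TMM scaling and the quasi-likelihood test of vestibule against cochlea, with Benjamini-Hochberg adjustment over all genes tested and a threshold of 0.05. The biological coefficient of variation was 0.195. CPM used counts on genes. Ratios were compared by exact permutation with scipy 1.17.1, and scripts were tested on simulated data. Intervals on low counts are exact and cover counting error only. Symbols were matched for 37607 IDs, and positions come from GENCODE vM21 on GRCm38, a later annotation than the one counted.

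The members and lists were chosen with earlier results of these data known, so no list is independent evidence of its direction. Named from each list were the 3 called genes of largest change with a mean of at least 1 CPM, and Krt14, Krt15, Krt17, Dsg3, Dsc3, Pkp1, Pkp3, Perp, Cdh1, Vim, Trp63, Grhl2 and Epcam. The other genes named (such as Krt20, Krt87 and Krt222 and the remaining plakins) were chosen after their values were seen. Alternatives were other scalings, DESeq2 1.42.0, limma-voom 3.58.1, other filters, the replicate block, leaving out each library, a looser threshold (0.1 with a fold of 1.3), a length trend offset and GENCODE lengths, the last 2 chosen after seeing the data. Some genes of the lists are counted but not reported here by name.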

Additional observations from a re-analysis of the deposited data

How the results depend on the processing

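In all 14 alternative fits Krt8, Krt18, Krt7, Dsp, Dsg2 and Dsc2 kept their direction and their call, and Krt19, Pkp2 and Jup were not called. Krt5, whose direction the filter set, could be fitted in 10 of them. The log2 fold change ranged from 0.87 to 1.06 for Krt8, 1.65 to 1.83 for Krt18, 3.90 to 4.79 for Krt5, 2.18 to 2.34 for Krt7, 1.73 to 2.29 for Dsp, 1.05 to 1.28 for Dsg2 and 1.71 to 1.98 for Dsc2. The count of members called was 6 to 7, being 6 with the 5 CPM filter and without each vestibular library, where Krt5 no longer passed the filter. Of the 3 ratios, that of the keratin types moved, to −0.14 without length. The log2 difference ranged from −0.87 to −0.72 for Krt8 to Krt18 and from −0.87 to −0.51 for Dsg2 to Dsc2. Leaving out 1 library gave 1342 to 2694 genes higher in the vestibule (1522 and 1342 without vestibule replicates 1 and 2) and 925 to 1863 higher in the cochlea (1035 and 925 without cochlea replicate 2 and vestibule replicate 2). For the lists, leaving out 1 library gave, in the vestibule and the cochlea, 2 to 4 and 0 to 1 other keratins, 0 to 1 and 1 to 2 adherens junction genes, and 2 to 3 and 0 to 1 hemidesmosome genes, 1 to 3 epithelial regulators in the vestibule and 2 to 5 other intermediate filament genes in the cochlea. Without a low count filter 3 other keratins were higher in the cochlea, and 4 and 2 other desmosome genes in the vestibule and the cochlea. With the 5 CPM filter fewer genes were tested, and 1 and 0 other keratins and 1 and 0 hemidesmosome genes were called. The hemidesmosome call in the cochlea was also 0 with library size alone, upper quartile scaling and the length trend. Adherens junction calls were 2 in the vestibule with library size alone and 1 in the cochlea with the length trend. With the replicate block 1609 genes were higher in the vestibule and 1009 in the cochlea, with 0 epithelial regulators and 0 adherens junction genes in the vestibule and 1 adherens junction and 0 hemidesmosome genes in the cochlea. The correlations of same-numbered deviations were −0.23, −0.294 and −0.518, and those of differently numbered libraries ran from −0.304 to 0.451. Deviations from a shared tissue mean depend on one another. These values therefore cannot show whether same-numbered libraries came from the same animals. Except for fewer genes tested, the cause of these changes was not tested. Krt5 in the cochlea is limited by depth.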

Other observations

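Of 15 intermediate filament genes other than keratins, 2 were higher in the vestibule, 4 were higher in the cochlea and 9 were not called. Their median log2 fold change was −0.28, and the calls made up 13.3% and 26.7%. Of all genes that likewise reached 1 CPM in a library of each tissue, 13.7% and 11.2% were called. Ina, a neuronal intermediate filament gene, was at 74.8, 83.9 and 23.8 CPM in the cochlea and at 17.6, 2.84 and 5.93 CPM in the vestibule (log2 fold change −2.93 ± 0.66, edgeR adjusted p = 0.011). Prph, peripherin of peripheral neurons, was at −2.20 ± 0.57 (edgeR adjusted p = 0.021). Neuron markers summed to 157 to 503 CPM in the cochlea and 102 to 323 CPM in the vestibule, with 2 of 6 called higher in the cochlea and 0 in the vestibule. Des, the filament gene of muscle, was at 10.5, 13.3 and 26.4 CPM in the cochlea and 5.88, 7.55 and 5.89 CPM in the vestibule (−1.49 ± 0.33, edgeR adjusted p = 0.0096), the highest value being in cochlea replicate 3, whose skeletal muscle markers summed to 313 CPM. Without cochlea replicate 2 the cochlear count was 2.

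The lamins of the nucleus were split, with Lmna higher in the vestibule (0.65 ± 0.12, edgeR adjusted p = 0.0044) and Lmnb1 higher in the cochlea (−0.62 ± 0.13, edgeR adjusted p = 0.0078). Synm, synemin, was higher in the vestibule (1.04 ± 0.21, edgeR adjusted p = 0.0057). Vim, vimentin, was at 765, 912 and 678 CPM in the cochlea and 570, 762 and 771 CPM in the vestibule and was not called (−0.28 ± 0.20, edgeR adjusted p = 0.34). The part of neuron and muscle RNA in these values was not tested.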
